A study of Mus musculus with 4 samples.

Results

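The genes of the cytosolic ribosomal proteins were read on 4 arrays of hepatic macrophage RNA through 44 probe sets, out of 30604 transcript clusters with exactly 1 gene symbol in the platform's annotation. They were chosen by symbol alone: Rpl or Rps with digits and at most 1 of the endings a, x, l or y, and Rpsa and Rplp0 to Rplp2, without pseudogene, kinase and mitochondrial names. The 44 probe sets belong to 38 genes, 15 of the small and 23 of the large ribosomal subunit. Of these genes 33 had 1 probe set, 4 had 2 and Rps26 had 3. The identifier of 36 probe sets gives the gene's own chromosome and that of 8 gives another, and these 8 may read related sequences. RefSeq lists 83 genes whose symbols meet this rule. Of the 45 without a member, 38 stood in probe sets that carry further symbols as well, among them Rps6, Rpl3, Rpl5, Rpl13a, Rpl32, Rplp1 and Rplp2, and 7 had no listed probe set.

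The RNA came from livers of male C57BL/6J mice whose disease state is given as CRCLM model, in a study of VEGFC and colorectal cancer metastasis. This model, sex and strain were shared by all arrays. A first group had been given an antibody against CCL3, a chemokine that draws monocytes and macrophages, and a second an isotype control antibody. Each group had 2 arrays, of fractions named by F4/80, CD11b and the letter m or p, which the labels do not spell out, so each combination was 1 array and no label says whether arrays stand for separate animals. Pairs of values below give fraction m before fraction p unless stated otherwise. The p-values below therefore rest on the spread left among 4 arrays, which may be technical, and on a prior over all clusters. In this design that spread is the difference of antibody effects between the fractions, which cannot be told apart from noise.

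Ribosomal proteins assemble with ribosomal RNA into the small subunit, which decodes the message, and the large subunit, which joins amino acids. A ribosome holds about equal numbers of most of them, and cells make their messenger RNAs in large amounts and together, in step with growth signals through the TOR kinase. Mammalian genomes also carry many processed copies of these genes, so that sequence closely related to a ribosomal protein messenger RNA occurs on several chromosomes.

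Some promoters of the member genes held a short sequence that the choice by symbol had not used. In RefSeq's windows on GRCm38.p6, from 250 bases before to 50 bases after each gene's start, the letters CCGGAAG, a core bound by ETS family factors such as GABP, occurred on either strand in 15 of 32 member genes with a window (46.9%), against 2683 of 27025 genes (9.93%), with no test of this difference. The letters AAGATGGC, a core bound by YY1, occurred in 1 of these 32 genes (3.12%) and in 3.19% of all genes. The stretches below are shown because these genes recur in the comparisons that follow, with capitals on the CCGGAAG match or its reverse complement, 5′ to 3′ on the gene's strand and ending no later than the start.
Rps26, chr10:128626684-128626750, minus strand: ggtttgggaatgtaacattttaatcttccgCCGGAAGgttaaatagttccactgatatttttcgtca
Rps7, chr12:28635954-28635997, minus strand: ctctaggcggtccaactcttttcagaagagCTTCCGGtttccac
Rpl41, chr10:128549188-128549254, minus strand: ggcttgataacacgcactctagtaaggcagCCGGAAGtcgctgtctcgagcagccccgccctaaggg
Rps18, chr17:33955786-33955852, minus strand: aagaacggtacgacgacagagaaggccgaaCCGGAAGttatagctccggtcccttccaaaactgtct
Rpsa, chr9:120127548-120127614, plus strand: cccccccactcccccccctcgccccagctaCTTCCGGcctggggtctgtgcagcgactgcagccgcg
Rpl38, chr11:114668530-114668579, plus strand: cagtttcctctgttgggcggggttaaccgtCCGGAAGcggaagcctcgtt

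The signals of members with and without these letters are given as a description, without a test. The 14 probe sets on the own chromosome whose gene had the match stood at a median of 6.53 on the log2 scale, and the 16 whose gene had no match at 6.67. Their median antibody differences were 0.02 and 0.08 and their median fraction differences -0.10 and -0.12. No factor's binding was measured here.

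Most ribosomal protein probe sets were as bright as typical negative controls. Values are log2 signals after RMA, which combines the probes of each set into 1 number, and the mean of 4 arrays had a median of 6.69 over the 44 members, with a middle range of 5.98 to 7.06. The 5222 negative-control probe sets had a median of 6.34, with 5.27 and 7.84 as quartiles, and all named clusters a median of 6.16. Of the 44 members 27 stood above the negative-control median (61.4%), against 39.7% of all named clusters. Above the upper quartile of the negative controls stood 5, and above their 95th percentile of 11.6 stood 1. Some negative controls were as bright as the brightest named clusters, so their values are no floor. Member medians were 6.76 and 6.58 on the anti-CCL3 arrays and 6.58 and 6.58 on the control arrays. The number of probe sets at the highest value of the table was 213 and 208 on the former and 207 and 145 on the latter, so the control array of fraction p had the fewest. Among 15 markers of macrophages and Kupffer cells the median mean signal was 6.18, below the negative-control median. Csf1r stood at 5.38, Lyz2 at 6.17, Adgre1 (F4/80) at 6.43 and Itgam (CD11b) at 6.26. The brightest were Marco at 8.40, Cd5l at 7.66, Cd68 at 6.88, Clec4f at 6.79 and C1qc at 6.76. Of these 15 markers 6 stood above the negative-control median (40%), against 39.7% of all named clusters. As a list, the markers of the labelled cell type thus did not stand out. Among 16 probe sets of housekeeping genes the median was 6.05, with Actb at 6.58, B2m at 5.76 and Fth1 at 5.58, although Gapdh stood at 9.96. Whether the identifiers of the deposited table match the annotation that names them was not tested, and every named value here rests on that match. Markers of hepatocytes and of T cells had medians of 6.41 and 6.49. Those of neutrophils, NK cells, monocytes and B cells had higher ones, 7.36, 7.06, 6.93 and 6.72. Endothelial, tumour epithelium and stellate markers had 6.01, 5.96 and 5.45. Each of these lists held 3 probe sets or fewer. Fewer cells of a type and less RNA per cell cannot be told apart in such samples.

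**Figure D1:**
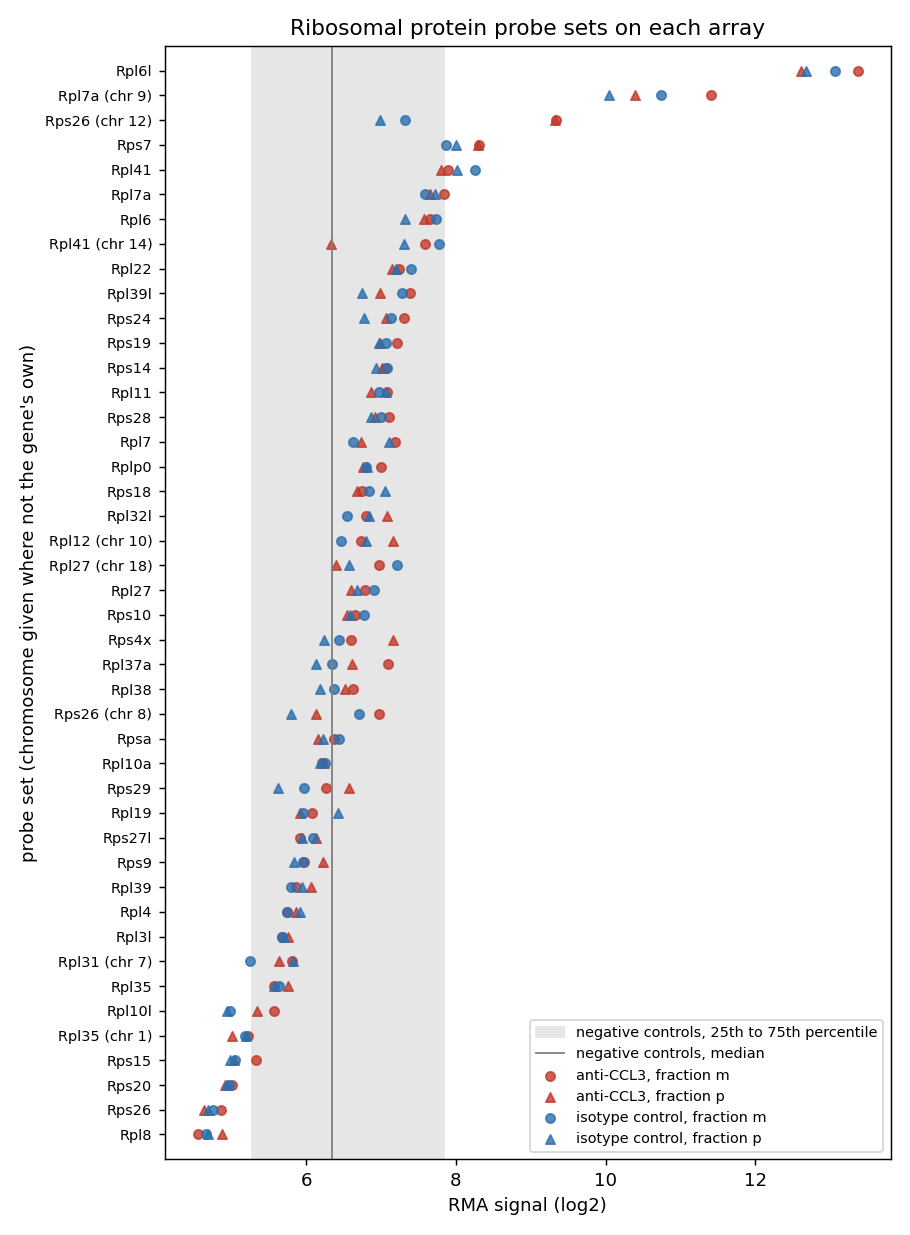
Signal of the 44 ribosomal protein probe sets on each of the 4 arrays (x axis, RMA signal on the log2 scale), ordered by their mean, with the chromosome of the probe set where it is not the gene's own. Colours stand for antibody and shapes for fraction, and the grey band spans the quartiles of the negative controls, 5.27 to 7.84, which hold most members, while Rpl6l, Rpl7a on chromosome 9 and Rps26 on chromosome 12 have the highest means.

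The brightest members were mostly not the standard gene copies. Rpl6l, a relative of the large-subunit gene Rpl6 that RefSeq lists as a pseudogene, had the highest mean, 12.9, with 13.4 and 12.6 on the anti-CCL3 arrays and 13.1 and 12.7 on the control arrays. Next came the probe set of Rpl7a on chromosome 9, with a mean of 10.6, although the large-subunit gene Rpl7a lies on chromosome 2. The probe set of Rps26 on chromosome 12 followed with 8.24, while that gene, whose protein lines the channel through which messenger RNA leaves the small subunit, lies on chromosome 10. Rps7, at 8.12, and Rpl41, at 7.99, were the brightest on their own chromosomes after Rpl6l. Rpl41 encodes the smallest protein of the ribosome.

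The dimmest members included standard gene copies of both subunits. Rpl8, of the large subunit, had the lowest mean, 4.69, followed by Rps26 on its own chromosome at 4.73, Rps20 at 4.95, Rps15 at 5.10 and the probe set of Rpl35 on chromosome 1 at 5.15. All lay below the lower quartile of the negative controls. Probe sets bind their targets unequally, so a lower signal of 1 probe set does not show less RNA than another.

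Genes often used as references for normalisation had middling signals. Rplp0, which forms the base of the stalk that recruits elongation factors, had 6.99 and 6.75 on the anti-CCL3 arrays and 6.79 and 6.81 on the control arrays. Rps18, of the small subunit's head, had 6.74 and 6.67 against 6.83 and 7.06 in the controls, so both its anti-CCL3 values lay below both control values. Rps29, a small zinc-binding protein of the small subunit, had 6.27 and 6.57 against 5.96 and 5.62, with both anti-CCL3 values above both control values. Rpl19, of the large subunit, had 6.07 and 5.91 against 5.96 and 6.42, where the groups overlapped. These 4 genes thus did not share a direction between the antibody groups. Rps19, Rpl11 and Rps14, genes linked to anaemia when disrupted in people, had means of 7.06, 6.996 and 7.02, and their 4 arrays each spanned 0.24 or less. Rps14 lies on chromosome 18, as does a probe set named Rpl27.

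The first comparison sets the anti-CCL3 arrays against the control arrays. Most member differences were small and of either direction. Over the 44 members the median antibody difference, anti-CCL3 minus isotype control, was 0.08, or 0.11 and 0.05 by fraction, against 0.02 over all 30604 named clusters. With quantile normalisation it was 0.01 and with cyclic loess 0.03, against -0.01 and 0.00 over all clusters. In both fractions 19 members were higher (43.2%) and 9 lower (20.5%), where 30.2% and 21.5% of all clusters were, and 16 had opposite signs. Both anti-CCL3 arrays lay above both control arrays for 8 members (18.2%) and below them for 2 (4.55%), against 18.8% and 13% of all clusters. No member passed limma's test after Benjamini-Hochberg adjustment over all clusters, where 0% were called, and the smallest adjusted p among members was 0.511 in this test, which with 4 arrays does not show that the groups were alike. At an unadjusted p below 0.05 in limma's fit stood 5 members in the direction of higher signal and 0 lower, against 4.96% and 1.8% of all clusters. A fitted difference above 0.5 in size was found for 6 members (13.6%), where 8.77% of all clusters had one.

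The largest difference between the antibody groups belonged to a probe set of Rps26 that does not lie on the gene's chromosome. On chromosome 12 its signals were 9.34 and 9.33 on the anti-CCL3 arrays and 7.32 and 6.98 on the control arrays. Both anti-CCL3 arrays were well above both controls. The log2 difference was 2.18 ± 0.14 (SE, 4 arrays), with a limma adjusted p of 0.511, and it was between 1.98 and 2.16 with the other normalisations. The probe set on chromosome 10, the gene's own, had 4.85 and 4.63 against 4.75 and 4.68 in the controls, so the groups overlapped. Its fitted value was 0.03 ± 0.11 (SE), with 0.10 and -0.05 by fraction. The probe set on chromosome 8 had 6.97 and 6.12 against 6.70 and 5.80, a difference of 0.30 ± 0.10 (SE). The 3 probe sets of this gene hence gave antibody differences from 0.03 to 2.18, and which of them reads the Rps26 messenger RNA was not tested.

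**Figure D2:**
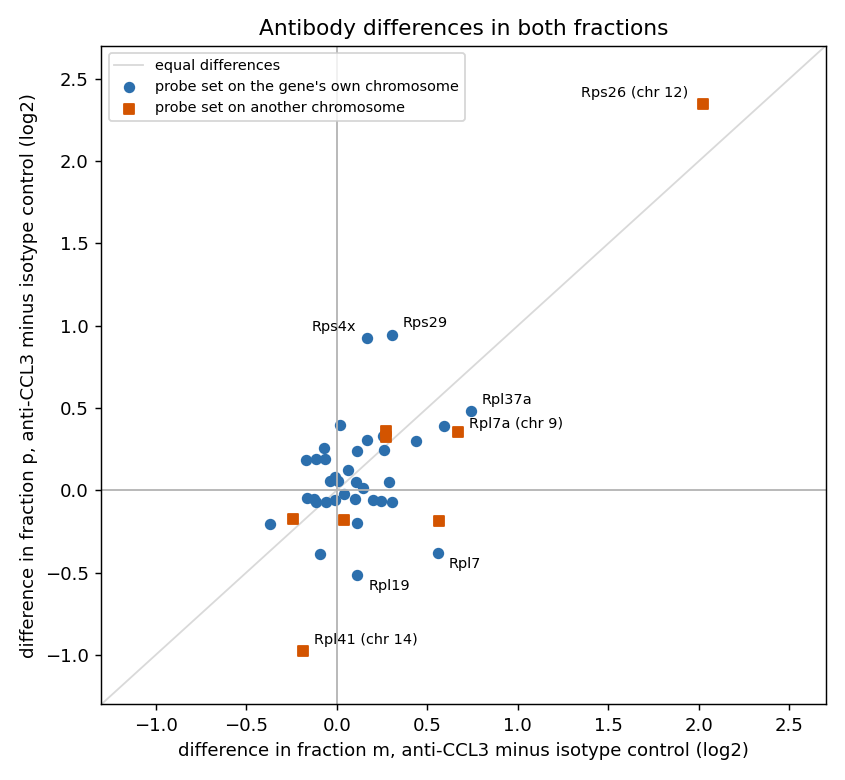
Antibody difference (anti-CCL3 minus isotype control, log2) of each of the 44 probe sets in fraction m (x axis) and fraction p (y axis), each from 1 array on either side, with the grey diagonal marking equal differences. Rps26 on chromosome 12 stands apart at 2.02 and 2.35, and the other members lie within about 1 of 0 on both axes.

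Among the other members named as higher after anti-CCL3 antibody, sizes were below 1. Rpl37a, a zinc-binding protein of the large subunit, had 7.09 and 6.61 against 6.35 and 6.13 in the controls. Its difference was 0.61 ± 0.12 (SE, 4 arrays), and the groups did not overlap. Rps29 was at 0.63 ± 0.22 (SE), with 0.31 and 0.95 by fraction. Rpl10l, a relative of Rpl10 known from the testis, had 5.56 and 5.34 against 4.97 and 4.94, a difference of 0.49 ± 0.11 (SE) at a mean of 5.20, below the lower quartile of the negative controls. Rps7, a protein of the small subunit, had 8.31 and 8.30 against 7.87 and 8.004, a difference of 0.37 ± 0.11 (SE), which was 0.17 with quantile normalisation and 0.21 with cyclic loess. The probe set of Rpl7a on chromosome 9 had 11.4 and 10.4 against 10.7 and 10.04, where the groups overlapped. Its difference of 0.51 ± 0.13 (SE) was -0.02 with quantile normalisation and 0.03 with cyclic loess, so its direction depended on the scaling. The adjusted p of these 5 in limma's test lay between 0.648 and 0.761.

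Members named as lower after anti-CCL3 antibody differed by less than 1 as well. Both probe sets of Rpl41 were lower in both fractions. On the gene's own chromosome 10 the signals were 7.89 and 7.81 against 8.26 and 8.01 in the controls, a difference of -0.29 ± 0.11 (SE, 4 arrays) with no overlap of the groups, which was -0.46 with quantile normalisation and -0.43 with cyclic loess. The probe set on chromosome 14 had 7.59 and 6.33 against 7.78 and 7.31, a difference of -0.58 ± 0.26 (SE), with -0.19 and -0.98 by fraction. The lowest of the 4 values was that of the anti-CCL3 array of fraction p. Rpl27, of the large subunit, was at -0.09 ± 0.10 (SE) on its own chromosome 11, or -0.14 with quantile normalisation, and at -0.21 ± 0.10 (SE) on chromosome 18. Rps18 was at -0.24 ± 0.13 (SE), or -0.09 and -0.38 by fraction, and Rpsa, which is also known as a receptor for laminin, at -0.07 ± 0.10 (SE). In limma's test the adjusted p of these 6 probe sets lay between 0.762 and 0.958.

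The genes with several probe sets show how far probe sets of a symbol can part. Rpl7a on its own chromosome 2 had 7.84 and 7.65 against 7.59 and 7.72 in the controls, a span of 0.24 over 4 arrays, while the probe set on chromosome 9 spanned 1.37. The probe sets of Rpl35 on chromosomes 2 and 1 spanned 0.19 and 0.21. Over the 8 members on another chromosome the median size of the antibody difference was 0.31, against 0.09 over the 36 on the own chromosome and 0.11 over all named clusters. For the fraction difference these median sizes were 0.50, 0.15 and 0.12. Over the 198 probe sets of ribosomal protein pseudogenes the median sizes were 0.29 for antibody and 0.30 for fraction. Large differences were thus not particular to the members on another chromosome.

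**Figure D3:**
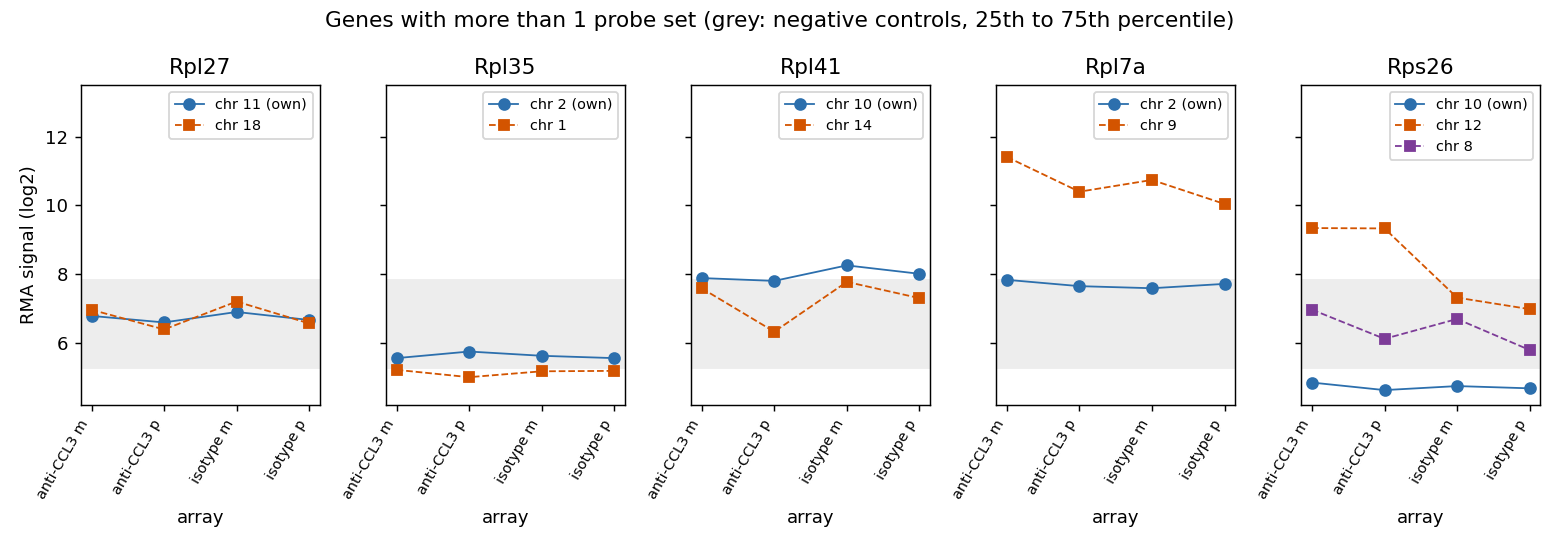
RMA signal (y axis, log2) on the 4 arrays (x axis) for the 5 genes with more than 1 probe set, where blue circles with solid lines stand for the gene's own chromosome and squares with dashed lines for another. The lines join values of a probe set and imply no order of arrays. Rpl7a on chromosome 2 spans 0.24 and on chromosome 9 it spans 1.37.

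The second comparison sets fraction p against fraction m. More members were lower in fraction p than higher, by small amounts. The median fraction difference, p minus m, was -0.11 over the 44 members, with -0.14 among anti-CCL3 arrays and -0.11 among control arrays, against -0.02 over all named clusters. It was -0.02 with quantile normalisation and -0.03 with cyclic loess, against 0.00 over all clusters in both. In this order the large-subunit median of -0.10 turned to 0.01 and 0.00, and the small-subunit median of -0.14 became -0.08 and -0.09. In both antibody groups 23 members were lower (52.3%) and 6 higher (13.6%), where 30.9% and 23.3% of all clusters were, and 15 had opposite signs. Both p arrays lay below both m arrays for 18 members (40.9%) and above them for 6 (13.6%), against 20.8% and 15.9% of all clusters. These counts, and those by subunit, were taken in the deposited scaling only and not with the other normalisations. In small-subunit genes 11 of 17 probe sets were lower in both antibody groups and 0 higher, and these 11 include all 3 probe sets of Rps26. In large-subunit genes 12 of 27 were lower and 6 higher. A difference between the subunits was not tested. No member passed limma's test for fraction, where 0% of all clusters were called, and the smallest adjusted p among members was 0.515. At an unadjusted p below 0.05 in limma's fit stood 6 members lower and 1 higher, against 5.82% and 2.3% of all clusters. A fitted difference above 0.5 in size was found for 5 members (11.4%), where 9.32% of all clusters had one.

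Probe sets on other chromosomes had the largest fraction differences. The probe set of Rps26 on chromosome 8 had 6.97 and 6.70 in fraction m, anti-CCL3 before control, and 6.12 and 5.80 in fraction p, a difference of -0.87 ± 0.10 (SE, 4 arrays) that was between -0.86 and -0.84 under the 3 other normalisations. The fractions did not overlap. Rps26 on its own chromosome was at -0.14 ± 0.11 (SE), with -0.22 among anti-CCL3 and -0.07 among control arrays. On chromosome 12 it was at -0.17 ± 0.14 (SE), with -0.01 and -0.34 in that order, but at 0.03 and 0.02 with quantile and cyclic loess normalisation, a turn of direction. The probe set of Rpl7a on chromosome 9 was at -0.85 ± 0.13 (SE), and at -0.32 and -0.34 with those scalings, while Rpl7a on its own chromosome was at -0.03 ± 0.13 (SE). Rpl41 stood at -0.16 ± 0.11 (SE) on its own chromosome and at -0.87 ± 0.26 (SE) on chromosome 14, where it was -1.26 among anti-CCL3 arrays and -0.47 among control arrays. Rpl27 stood at -0.60 ± 0.10 (SE) on chromosome 18 and at -0.21 ± 0.10 (SE) on its own. In the deposited scaling the own chromosome's probe set thus had the smallest fraction difference of each of these 4 genes. The moderated errors had a lower end of 0.0965 over all clusters, so those near 0.10 reflect the prior more than the arrays.

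**Figure D4:**
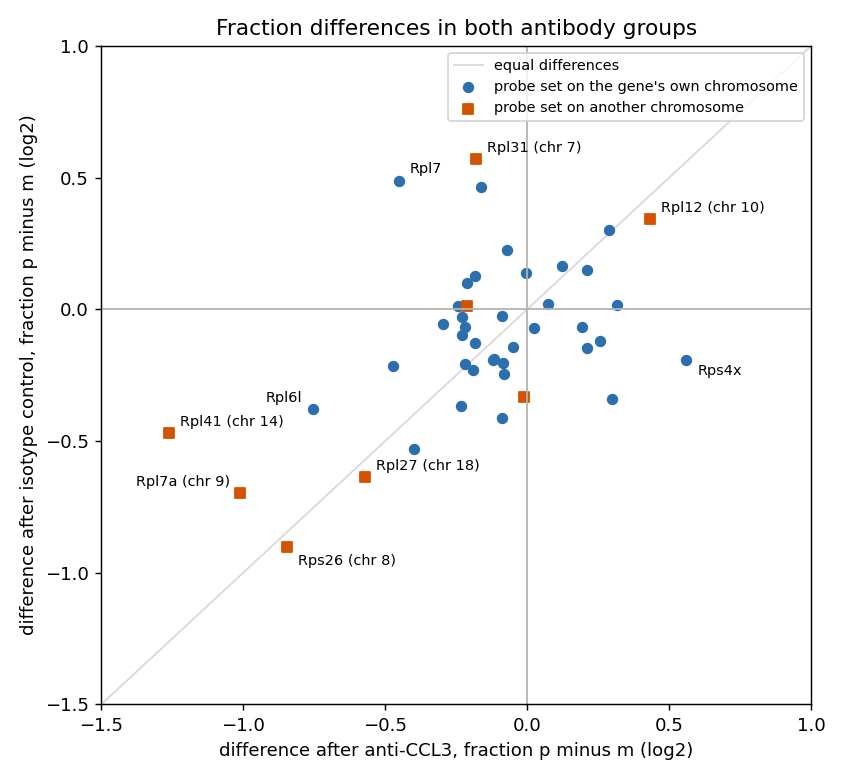
Fraction difference (p minus m, log2) of each of the 44 probe sets among anti-CCL3 arrays (x axis) and control arrays (y axis), 1 array on either side, with the grey diagonal marking equal differences. Rps26 on chromosome 8 lies at -0.85 and -0.90 and Rpl7a on chromosome 9 at -1.01 and -0.70, while Rpl41 on chromosome 14 lies far from the diagonal at -1.26 and -0.47.

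Other members with the same direction in both antibody groups included relatives of the standard genes. Rpl39l, a relative of Rpl39 known from sperm formation, had 7.39 and 7.27 in fraction m and 6.99 and 6.75 in fraction p, a difference of -0.46 ± 0.10 (SE, 4 arrays). Rpl6l was at -0.57 ± 0.15 (SE), but at 0.17 with quantile normalisation and 0.11 with cyclic loess, so its direction depended on the scaling. Toward higher signal in fraction p stood the probe set of Rpl12, a protein at the base of the stalk, on chromosome 10, with 6.73 and 6.46 in fraction m and 7.16 and 6.80 in fraction p. Its difference was 0.39 ± 0.10 (SE), and the gene itself lies on chromosome 2. Rpl32l was at 0.29 ± 0.10 (SE), Rpl39, which lines the tunnel through which the new protein leaves, at 0.18 ± 0.10 (SE), Rpl4, of the same tunnel, at 0.14 ± 0.10 (SE), and Rpl3l, a relative of Rpl3 known from striated muscle, at 0.05 ± 0.10 (SE), or 0.07 among anti-CCL3 and 0.02 among control arrays. Rpl8 was at 0.17 ± 0.13 (SE), with 0.32 among anti-CCL3 arrays and 0.01 among control arrays, so its difference came from the anti-CCL3 arrays. Rps27l, a relative of Rps27 that p53 is known to induce, was at 0.03 ± 0.14 (SE) with opposite signs in the antibody groups. Rps4x, a small-subunit gene of the X chromosome, had 6.60 and 7.16 on the anti-CCL3 arrays against 6.43 and 6.24, with the highest value on the anti-CCL3 array of fraction p. The adjusted p of the fraction term in limma's test lay between 0.515 and 0.941 for the 12 probe sets named by direction.

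The remaining members showed differences of various sizes, some larger in size than those of members named for the opposite direction. Rps24, a small-subunit protein, had 7.30 and 7.07 on the anti-CCL3 arrays and 7.13 and 6.76 on the control arrays, so that both m values lay above both p values, with a fraction difference of -0.30 ± 0.10 (SE, 4 arrays). Rpl38, known for its part in the translation of Hox messenger RNAs, had 6.63 and 6.51 against 6.37 and 6.18, and its antibody difference was 0.29 ± 0.10 (SE). Rps9, of the small subunit, had 5.97 and 6.23 against 5.95 and 5.83. Its groups did not overlap, by a margin of little size in fraction m, where the difference was 0.02. Rpl6 had a fraction difference of -0.25 ± 0.14 (SE), and Rps28, Rps10, Rpl22 and Rps15 had between -0.18 and -0.14, each lower in fraction p in both antibody groups. Rpl10a and Rpl3l spanned only 0.07 and 0.08 over 4 arrays. The probe set of Rpl31 on chromosome 7 had an antibody difference of 0.56 in fraction m and -0.19 in fraction p.

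Other genes of protein synthesis gave a background for these values. The list of ribosomal protein pseudogenes includes copies of genes without a member, such as Rpl30, and sequence shared with the members was not checked. Its 198 probe sets had a median level of 7.05, above that of the members. Their median antibody difference was 0.23 and their median fraction difference -0.23, and both had these signs with quantile normalisation, at 0.13 and -0.15, and with cyclic loess, at 0.16 and -0.15. Of the 198, 112 were higher on the anti-CCL3 array of either fraction and 21 lower on both, and 106 were lower in fraction p in both antibody groups and 30 higher. Over all named clusters 30.2% were higher and 21.5% lower for antibody, and 30.9% were lower and 23.3% higher for fraction. Rpl30-ps9 and Rpl30-ps1 had the highest antibody differences of the pseudogene list, 1.86 and 1.78, and Rpl9-ps5 and Rpl48-ps1 the lowest, -0.63 and -0.60. The fraction differences of this list ran from -1.42 to 1.09. The 53 probe sets that carry a ribosomal protein symbol together with others had a median level of 6.85, an antibody median of 0.14 and a fraction median of -0.07.

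Mitochondrial ribosomal proteins and the genes that make or serve the ribosome had median differences near those of all clusters, with larger values for single genes. The 75 probe sets of mitochondrial ribosomal proteins, which build the separate ribosome of mitochondria, had a median level of 5.99, with median differences of 0.00 for antibody and -0.01 for fraction. Among 33 probe sets of translation initiation and elongation factors, 8 were higher with anti-CCL3 in both fractions and 9 lower, with Naca, which binds new chains at the tunnel exit, at 0.28 and Eif4h, a helper of the helicase eIF4A, at -0.42. Among 34 of ribosome biogenesis, 10 were higher and 9 lower, with Ltv1 at 0.26 and Tsr1 at -0.15. Among 11 of RNA polymerase I, which transcribes ribosomal RNA genes, 2 were higher and 4 lower, and among 15 of TOR and S6 kinase signalling, 3 were higher and 6 lower. Over all named clusters 30.2% were higher and 21.5% lower. In the fraction comparison Npm1, a nucleolar chaperone, was at -0.34 and Naca at -0.69. In limma's test 0 probe sets of these lists passed for either comparison, while an unadjusted p below 0.05 was found for 1 translation factor and 1 mitochondrial probe set for antibody. For fraction it was found for 1 probe set each of translation, ribosome biogenesis and the mitochondrial ribosome. All of these were in the direction of lower signal, where 1.8% of all clusters stood at this p in limma's fit for antibody and 5.82% for fraction. Among ribosomal protein genes outside the symbol rule, Rpl22l1 had an antibody difference of 0.27, and the probe sets of Fau, which encodes a small-subunit protein joined to a ubiquitin-like one, had -0.07 and -0.22.

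**Figure D5:**
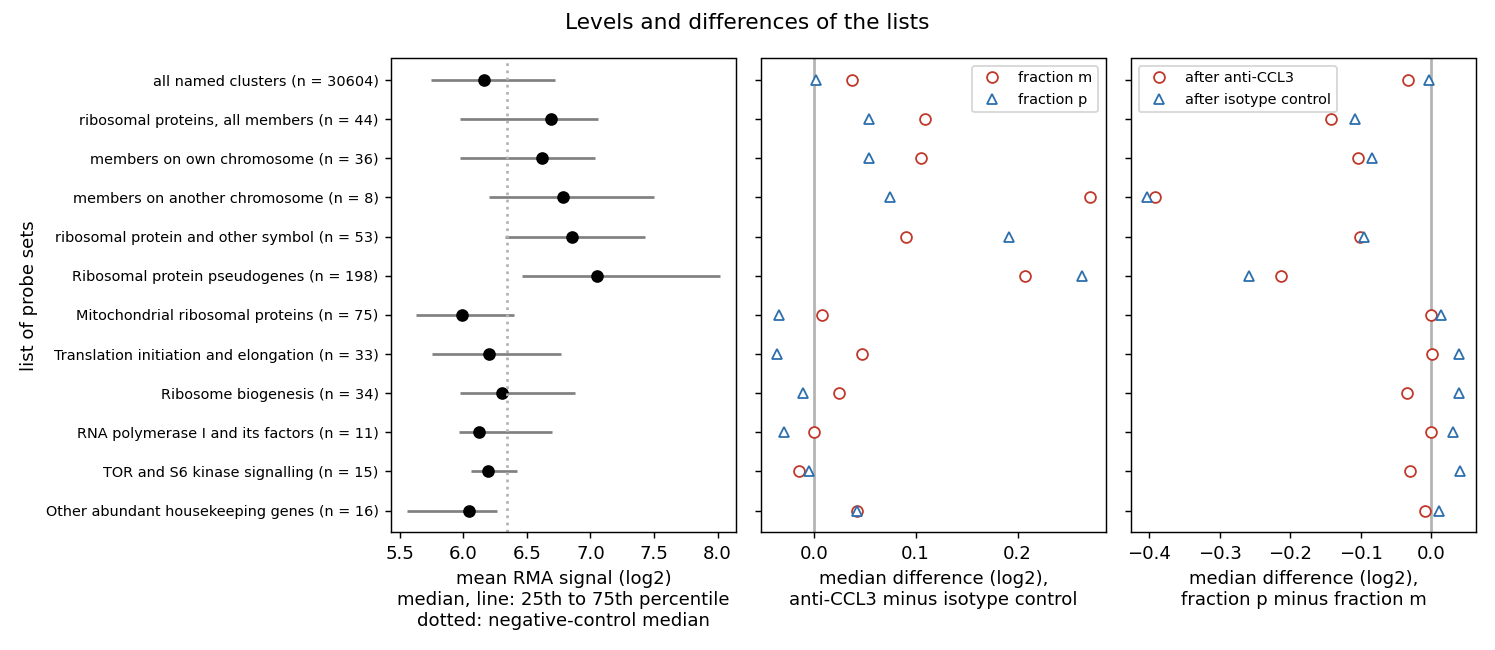
Median level with quartiles (left, log2) and median antibody and fraction differences (middle and right, log2) of the ribosomal protein members and other lists of probe sets, with the number of probe sets after each name. Of the lists shown, ribosomal protein pseudogenes had the highest median level, 7.05, and members on another chromosome the most negative fraction medians, -0.39 and -0.40.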

How the data were processed

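Per the labels' protocols, RNA was amplified and biotin-labelled with a WT Pico kit. The authors deposited log2 values for each probe set, and the submitters' processing notes name RMA and Affymetrix Expression Console without versions. That the scale is log2 was inferred from RMA's usual output and the range of the values.

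The table held 72688 probe sets on 4 arrays. All 30604 transcript clusters with exactly 1 distinct symbol were tested without a filter on dim values, so that each of the 44 members was tested; a symbol listed more than once counted once. Chromosomes came from the identifiers and from RefSeq's gene table. limma 3.58.1 in R 4.3.3 fitted antibody and fraction as additive terms with empirical Bayes moderation, which leaves 1 residual degree of freedom plus 1.76 from the prior, and Benjamini-Hochberg adjustment at 0.05. A difference inside 1 fraction or 1 antibody group compares single arrays and has no test. The number of arrays limits the precision.

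Named for each comparison and direction were the 6 members, of those with both paired differences in that direction, whose lesser paired difference was largest. Beside these stood Rps26, reference genes, relatives of standard genes and the 5 brightest and 5 dimmest members. Of the other lists discussed, only some of the genes at their ends were named. Rpl7, Rpl35, Rpl31 and the members described together as remaining were named after their values were seen. The members and lists were chosen with earlier results of these data known. Alternatives were other normalisations, models, filters and choices of probe set, and leaving out each array.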

Additional observations from a re-analysis of the deposited data

Results flagged for a closer look

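Rpl7, a large-subunit gene, had differences of opposite sign. Its antibody difference, anti-CCL3 minus isotype control, was 0.56 in fraction m but -0.38 in fraction p. Its fraction difference, p minus m, was -0.45 among anti-CCL3 arrays but 0.49 among control arrays. Among members with opposite signs it alone had a size of at least 0.3 on both sides. Rps29 fell just short of this for fraction, at 0.299 among anti-CCL3 arrays and -0.341 among control arrays. Each of these values rests on 1 array on either side, and the difference between them was not tested.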

How the results depend on the processing

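No member was called for antibody or fraction under any setting that gives a test: the 3 other normalisations, a single term in the model, an intensity trend in the prior, the level filter, which 29 members passed, own-chromosome probe sets, the brightest probe set per gene and the mean per gene. Nor was any other named cluster called under these settings, so the lack of calls is not particular to the members. The smallest adjusted p of members in limma's test ran from 0.369 to 0.941 for antibody and from 0.411 to 0.776 for fraction. The median antibody difference of 0.08 was 0.0104 after quantile and 0.0313 after cyclic loess normalisation. The median fraction difference of -0.11 was -0.0163 and -0.0268 in the same order, -0.157 with the level filter, and -0.0773 with own-chromosome probe sets, with the brightest probe set per gene and with the mean per gene. Without an array of the isotype control it was -0.142 and without an array of the anti-CCL3 group -0.108. The counts by direction, overlap, unadjusted p or size, for members and other lists, were taken in the deposited scaling only. They were not recomputed with the other normalisations. Of 272 recomputed values of single probe sets 7 turned in sign: Rpl7a on chromosome 9 for antibody, at -0.0208 after quantile normalisation; Rpl6l for fraction, at 0.166 and 0.105, and Rps26 on chromosome 12 for fraction, at 0.0307 and 0.0203, after quantile and cyclic loess normalisation; and Rps26 on chromosome 10 for antibody, which ran from -0.0514 to 0.102 when an array was left out. The causes were not tested. Most of these recomputed values could not turn, so their number is no measure of stability. A single term, a trend in the prior and the level filter leave each estimate as it is. Leaving out an array returns a paired difference of single arrays, and most of these members were named because their paired differences shared a sign. The fit pairs arrays by fraction for the antibody comparison and by antibody for the fraction comparison. Fitting a single term, without this pairing, left both medians at the same values. With 1 array per combination of antibody and fraction this must be so, and it is no check of the pairing.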
